A study of Mus musculus with 30 samples.

Results

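The nuclear-encoded subunits of the respiratory chain were followed across 30 libraries of mouse tibialis anterior, a fast-twitch muscle of the shin. Members were taken by symbol, as the genes named for subunits of complexes I to V (Ndufa, Ndufb, Ndufc, Ndufs and Ndufv with a number, Sdha to Sdhd, Uqcr, Cox4 to Cox8 and Atp5), and 4 matching pseudogene symbols that end in -ps were left out. The rule found 84 members among 47643 rows of the table, of which 23193 were above 0 in at least 1 library. They comprised 37 genes of complex I, 4 of complex II, 8 of complex III, 18 of complex IV and 17 of complex V. The label held for all but a few: Cox7a2l acts in joining complexes together, Atp5s and Atp5sl are not structural subunits of the synthase, and Ndufa4, named for complex I, is now regarded as a subunit of complex IV.

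The respiratory chain sits in the inner mitochondrial membrane. Complexes I and II pass electrons from NADH and succinate to ubiquinone, complex III passes them to cytochrome c, and complex IV passes them to oxygen; complexes I, III and IV pump protons, and complex V, the ATP synthase, lets them back to make ATP. Most subunits are encoded in the nucleus and imported, while a small core of complexes I, III, IV and V is encoded by mitochondrial DNA, so the sets are built from 2 genomes. Several nuclear subunits of complex IV come as a pair of isoforms, of which 1 is typical of heart and skeletal muscle.

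The labels give male C57BL/6J for every mouse and call the libraries biological replicates. The protocol text also speaks of muscle with a UBR4 mKO at the same ages as the age experiment; the labels of the old and young libraries name no such allele, and their genotype is not stated beyond the strain. In the age experiment 3 libraries came from mice 24 months old and 3 from mice 6 months old, called old and young here. In the second, 4 libraries came from mice treated with the glucocorticoid dexamethasone and 4 from controls; in the third, 4 came from mice with LLC cancer and 4 from controls of their own. In the last, 4 libraries had siRNAs against Cyr61, which encodes a secreted matrix protein, and 4 had NT siRNAs. The sources used here do not give the dose, the duration, what the controls received, the age of the mice in the last 3 experiments, or the words behind LLC and NT. Age, dexamethasone and LLC are the stimuli of muscle wasting whose differences the series title names.

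Values are TPM, a transcript level scaled for gene length and library total, and were rescaled here to 1000000 per library without the 37 mitochondrially encoded rows. Those rows held 34.0 to 60.4% of the deposited TPM, so the scale matters for every member. Reads recovered from the steps of the TPM values came to about 30.01e6 to 60.88e6 per library. The 8 muscle fibre markers (Ckm, Acta1, Mylpf and others) summed to between 146669 and 203463 TPM in every library. Cyr61 itself stood at 117, 124, 129 and 86.0 TPM with NT siRNAs and at 68.6, 109, 79.3 and 50.4 with Cyr61 siRNAs, a log2 difference of -0.60 (exact permutation test, two-sided, p = 0.0571, n = 4 each, where 0.0286 is the smallest that 4 against 4 allows). The ranges of those libraries overlapped.

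Most members were abundant, and the muscle isoforms of complex IV stood with the ATP synthase at the top. Of 84 members, 81 had at least 1 TPM in every library. Averaged over the 30 libraries, the highest level belonged to Atp5l, subunit g of the synthase, at 3454 TPM, followed by Cox6a2 at 3352 and Cox8b at 2922, the muscle forms of complex IV subunits VIa and VIII, and by Atp5a1 at 2763 and Atp5b at 2587, the alpha and beta subunits that form the catalytic head. The other forms of those complex IV subunits, Cox6a1 at 88.1 TPM and Cox8a at 182 TPM, were among the lower members. At the bottom were Cox8c, which was listed at 0 in every library, Cox7b2 at no more than 1.11 TPM, Cox6b2 at a mean of 1.02 TPM and Cox4i2 at 5.18 to 11.6 TPM. Cox7b2 and Cox6b2 rested on 0 to 6 and 4 to 32 recovered reads per library, so nothing could be read from their differences.

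The chain as a whole took a variable share of a library. Summed over all members the level ran from 45614 TPM in dexamethasone 2 to 88154 TPM in NT siRNA 1, that is from 4.56 to 8.82% of the nuclear transcripts. Its make-up by complex moved less. Over single libraries the share of complex I in the sum ran from 29.1 to 32.3%, and that of complex II from 3.35 to 4.48%. The share of complex III ran from 11.6 to 12.4%, that of complex IV from 25.5 to 28.8%, and that of complex V from 24.3 to 27.5%.

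**Figure D1:**
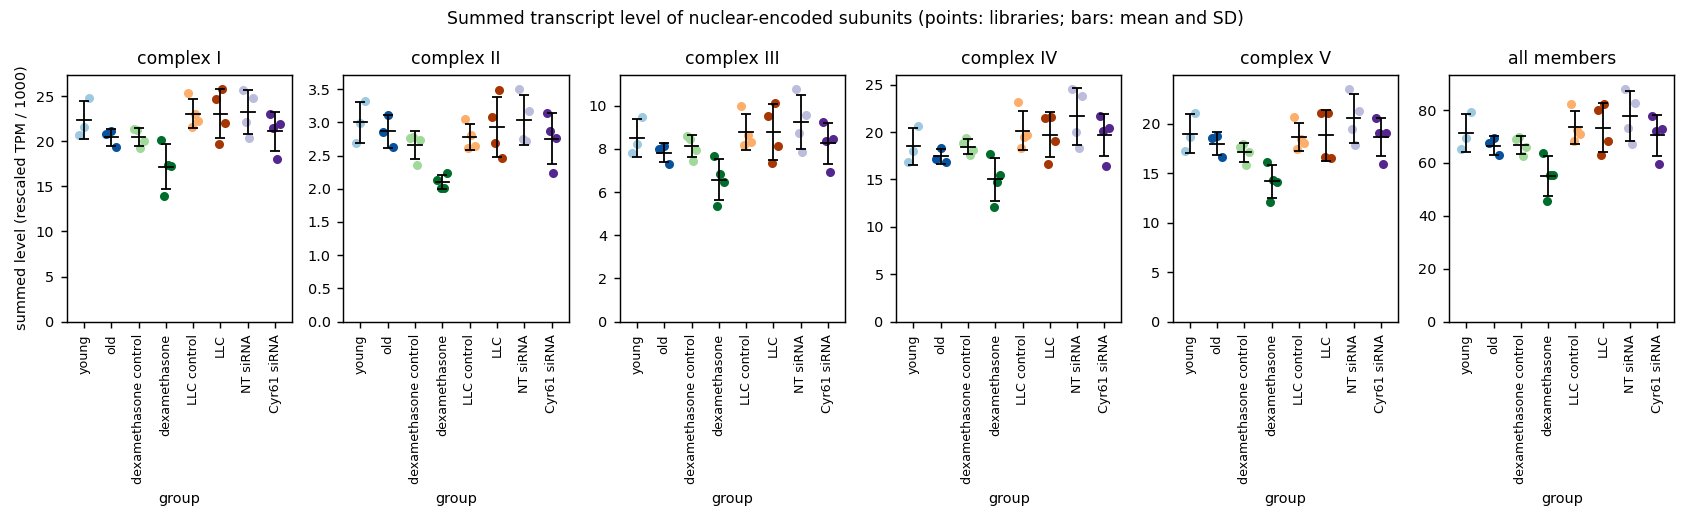
Summed level of the members of each complex and of all 84 members (vertical axes, rescaled TPM divided by 1000) in the 8 groups (horizontal axes); points are libraries, bars the mean and SD. The 4 dexamethasone libraries lie lowest in complex II, at 2013 to 2232 TPM against 2354 to 2780 in their controls, while dexamethasone 1 reaches the control range in the sum of all members.

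Within a group, members rose and fell together from library to library. Around its group means a member varied by a median SD of 0.18 on the log2 scale (22 residual degrees of freedom), and the shift that all members shared in a library had an SD of 0.16. Once that shared shift was taken off, the median SD was 0.08, and it was smaller for 73 of 81 members. Ndufb9, an accessory subunit of complex I, followed the shared shift most closely, with an SD of 0.04 around it. The SD around the shift was largest for Cox4i2 (0.27), Ndufa4l2 (0.23), Atp5sl (0.20), Sdha (0.20) and Cox8a (0.20). For Cox8a it was still below the SD of 0.24 around its group means. The members are therefore not independent of each other, and a count of members moving one way repeats, in part, the position of a few libraries.

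**Figure D2:**
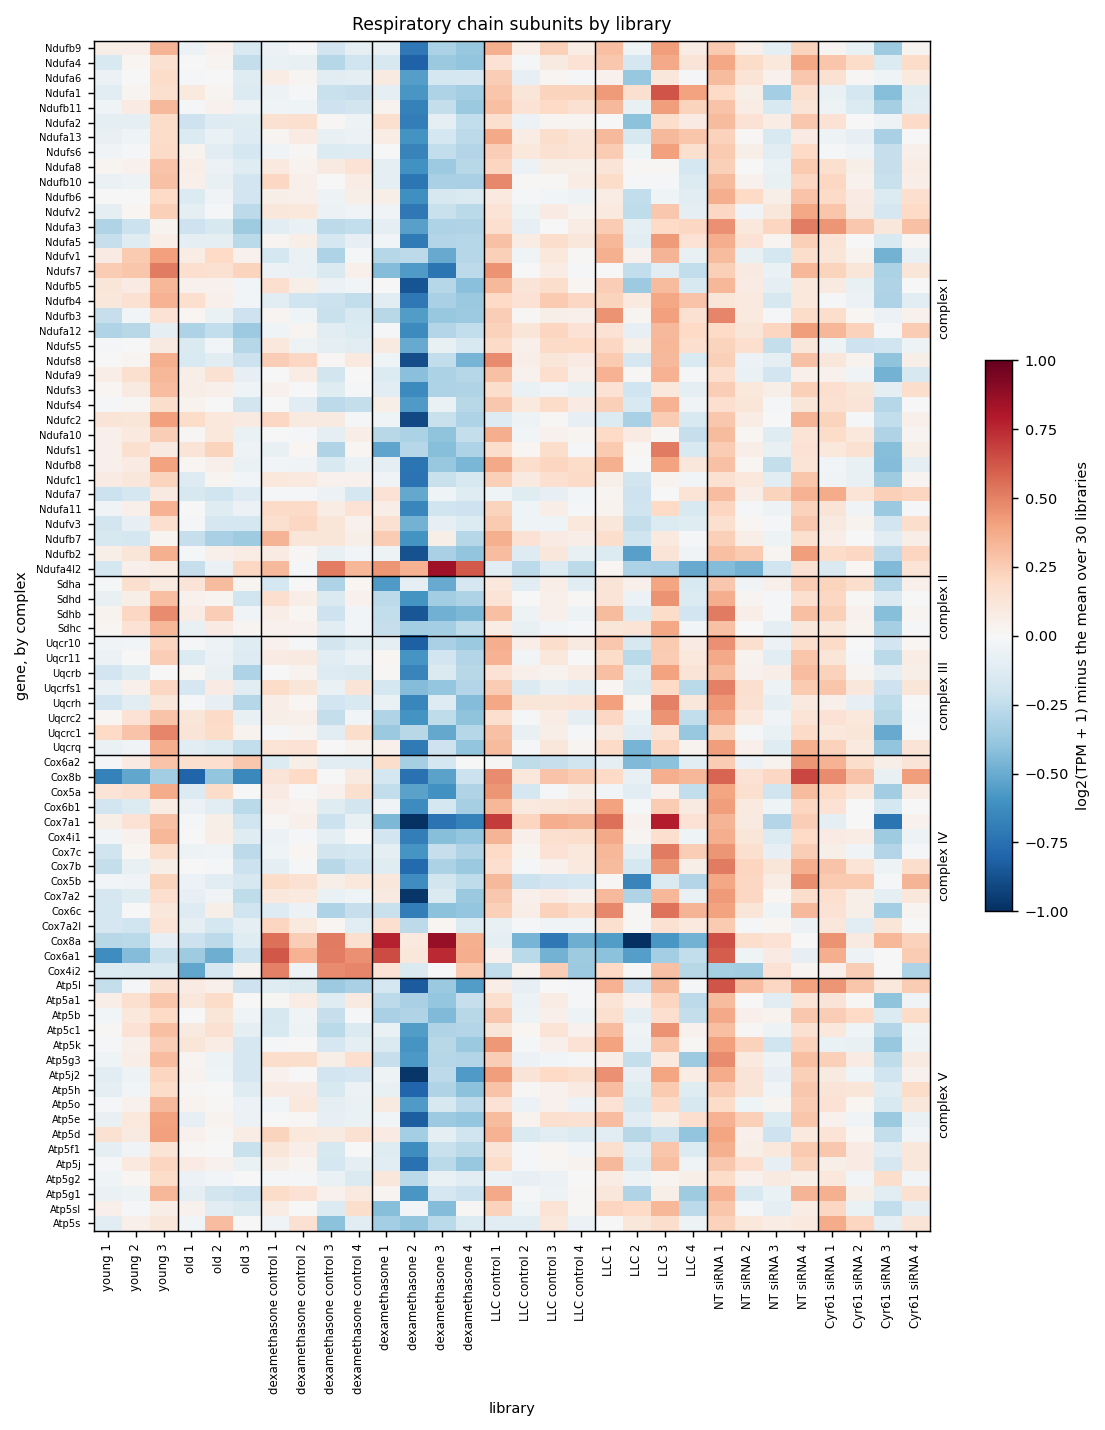
Of the 81 members with at least 1 TPM in every library, 80 are drawn (rows, by complex and then by level) in each of the 30 libraries (columns, by group); colour is log2(TPM + 1) minus the member's mean over the libraries, from -1 (blue) to 1 (red). The column of dexamethasone 2 is blue in nearly every row, LLC control 1 and NT siRNA 1 are red in most, and Cox8a, Cox6a1, Cox4i2 and Ndufa4l2 depart from the other rows.

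On TPM rescaled without mitochondrially encoded rows, dexamethasone muscle had a lower mean summed level than its controls in all 5 complexes. On TPM as deposited the median member was at -0.01, as described below. By limma with Benjamini-Hochberg adjustment over 12961 rows, 8 of 82 members tested fell at an adjusted p under 0.05 and 0 rose, beside 2.96% of all rows that fell and 5.56% that rose. The 8 comprised 2 of 37 members of complex I, 1 of 4 of complex II, 2 of 8 of complex III, 2 of 16 of complex IV and 1 of 17 of complex V. At an unadjusted p under 0.05 there were 38 of 82 members, beside 3127 of 12961 rows. The median member differed by -0.28 on the log2(TPM + 1) scale while the median row differed by 0.10, so members stood at -0.38 relative to it, and 79 of 82 were below it. Values of every dexamethasone library lay below every control library for 24 members, against 5.89% of all rows. They lay above for 0 members, where the share of all rows was not counted.

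Cox7a1, the muscle form of subunit VIIa of complex IV, had the largest decrease. It stood at 1806, 1852, 1538 and 1696 TPM in the control libraries and at 1311, 899, 1070 and 1119 TPM in the dexamethasone libraries. All 4 dexamethasone libraries were below the lowest control, and dexamethasone 2 was lowest. The mean was 36.2% lower, with a log2 difference of -0.66 ± 0.13 (SE; adjusted p = 0.0141, limma). It was called in 11 of 11 other settings and in 6 of 8 fits that left out a library, the exceptions being those without dexamethasone control 1 and dexamethasone control 2 (adjusted p up to 0.0555).

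Cox5a, a subunit of complex IV on its matrix side, stood at 2316, 2197, 2258 and 2453 TPM in controls and 1849, 1509, 1443 and 1779 TPM after dexamethasone, without overlap (log2 difference -0.49 ± 0.12, adjusted p = 0.0297). Atp5g3, one of 3 genes that each encode the same c subunit of the ATP synthase rotor, stood at 1073, 1073, 987 and 1066 TPM in controls and at 808, 635, 778 and 773 TPM after dexamethasone. Its groups also lay apart, with a log2 difference of -0.49 ± 0.11 (adjusted p = 0.0189). The other genes for the c subunit did not pass. Atp5g1 was at 409 ± 17.2 TPM (SD, n = 4) in controls and 323 ± 54.9 after dexamethasone, again with no overlap (adjusted p = 0.117). The groups overlapped for Atp5g2, which was called higher on TPM as deposited (0.25, limma, adjusted p = 0.0357).

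In complex I, Ndufs7, which holds the last iron-sulfur cluster before ubiquinone, stood at 488, 485, 459 and 527 TPM in controls and 377, 343, 306 and 423 TPM after dexamethasone (log2 difference -0.44 ± 0.11, adjusted p = 0.0371). Ndufa8, an accessory subunit of the membrane arm, stood at 775, 741, 770 and 800 TPM in controls and 678, 475, 562 and 598 TPM after dexamethasone (-0.43 ± 0.12, adjusted p = 0.0483). Both sets of 4 libraries were separate in each gene. In complex I 0 of 10 members of the module that accepts electrons from NADH were called, 1 of 5 of the module that reduces ubiquinone and 1 of 19 of the membrane arm, with median log2 differences of -0.23, -0.31 and -0.30.

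In complexes II and III the decreases were of similar size. Uqcrfs1, the Rieske iron-sulfur protein of complex III, stood at 1339, 1281, 1126 and 1291 TPM in controls and 1045, 873, 905 and 965 TPM after dexamethasone (-0.41 ± 0.10, adjusted p = 0.0378). Uqcrc1, a core subunit of complex III, stood at 597, 613, 559 and 678 TPM in controls and 465, 497, 420 and 494 TPM after dexamethasone (-0.38 ± 0.10, adjusted p = 0.0416). Sdhd, a membrane anchor of complex II that is named here after its values were seen, stood at 925, 864, 747 and 848 TPM in controls and 689, 544, 648 and 666 TPM after dexamethasone (-0.41 ± 0.11, adjusted p = 0.0479). In all 3 genes the groups did not overlap. Each of these 7 members other than Cox7a1 lost its call in at least 1 of the 11 other settings, TPM as deposited among them, and in 3 or more of the 8 fits without 1 library.

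Core subunits that did not pass had lower means as well. Sdhb, the iron-sulfur subunit of complex II, was at 675 ± 55.2 TPM in controls and 491 ± 83.1 after dexamethasone (adjusted p = 0.0566), and Cox4i1, the ubiquitous form of subunit IV, was at 1422 ± 40.9 and 1098 ± 154 TPM (adjusted p = 0.0764). The groups lay apart in both. Atp5a1 was at 2773 ± 183 and 2227 ± 105 TPM (adjusted p = 0.103) and Atp5b at 2380 ± 171 and 2029 ± 99.4 TPM (adjusted p = 0.226), without overlap as well. Ndufv1, Ndufs1 and Ndufs3, core subunits of complex I, and Sdha, the flavoprotein of complex II, had log2 differences from -0.31 to -0.19 with overlapping groups.

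A few members did not share the lower level. Cox6a2 was at 3149 ± 200 TPM in controls and 3156 ± 479 after dexamethasone, and Cox6a1 at 119 ± 9.26 and 119 ± 23.4 TPM. Cox8a was at 226 ± 30.3 and 255 ± 62.5 TPM (adjusted p = 0.639), and Ndufa4l2, a relative of Ndufa4 induced by low oxygen, at 26.6 ± 4.03 and 32.4 ± 5.21 TPM (adjusted p = 0.272); all 4 overlapped between groups.

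**Figure D3:**
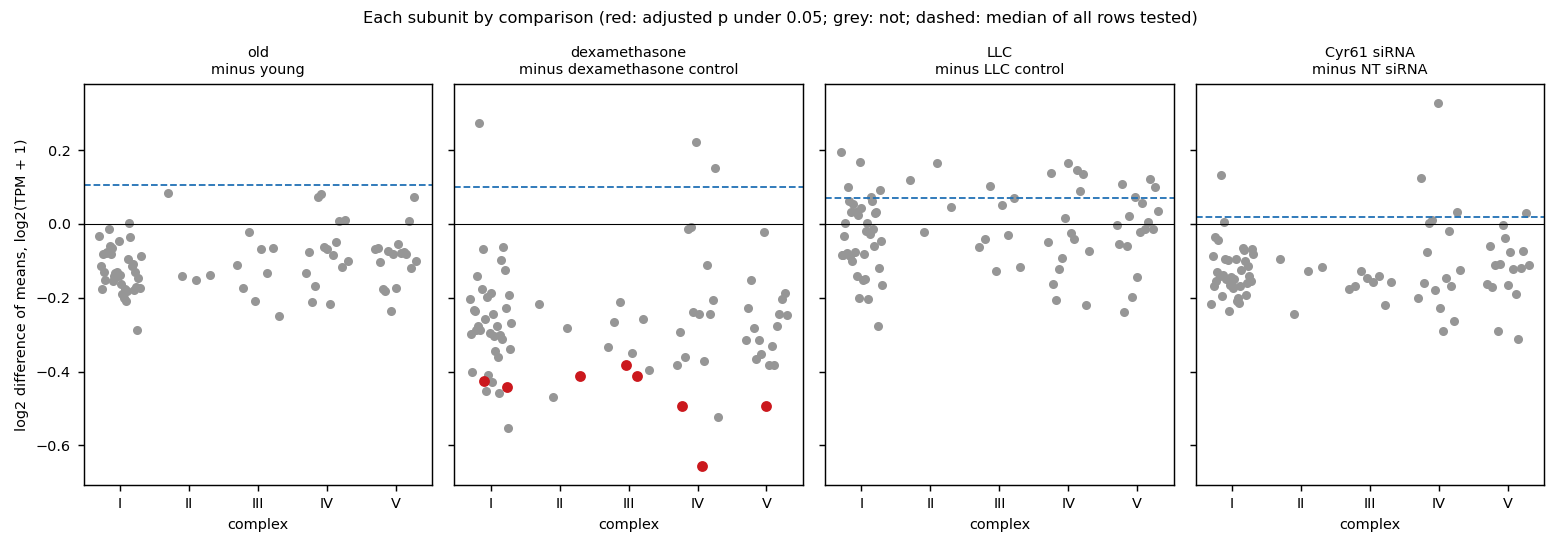
Log2 difference of means (vertical axis) of each tested member, by complex (horizontal axis), in the 4 comparisons; red points have an adjusted p under 0.05, the dashed line is the median of all rows tested. The 8 red points are all in the dexamethasone panel, from -0.66 to -0.38, and in the old panel all 81 points lie below the dashed line.

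How large the dexamethasone difference is, and how many members fall or rise, depends on the scale. Mitochondrially encoded rows took 34.0 to 41.5% of the deposited TPM in the dexamethasone libraries and 46.3 to 50.7% in the controls. On the TPM as deposited, with those rows kept, 1 member fell (Cox7a1, -0.38, adjusted p = 0.0199) and 3 rose, namely Ndufa4l2 (0.53, adjusted p = 0.0230), Cox8a (0.43, adjusted p = 0.0489) and Atp5g2 (0.25, adjusted p = 0.0357), and the median member was at -0.01. The median of all rows was then at 0.33, so relative to the median row the members stood at -0.34, near the -0.38 of the main scale and the -0.39 under median-of-ratios scaling. Single libraries also moved the number called. It was 0 without dexamethasone control 1 or dexamethasone control 2, 3 without control 3 and 1 without control 4. It was 29 without dexamethasone 1, whose summed level of 63804 TPM was the highest of its group, 2 without dexamethasone 3 and 4 without dexamethasone 4. Without dexamethasone 2, the lowest library, 7 members were called and the median member was at -0.21.

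**Figure D4:**
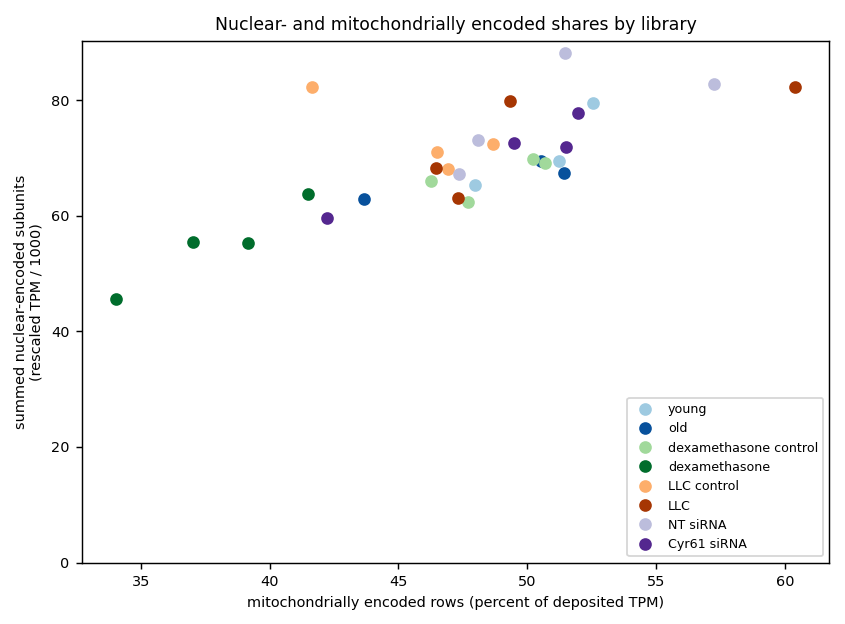
Share of the deposited TPM held by mitochondrially encoded rows (horizontal axis, percent) against the summed level of the 84 nuclear-encoded members (vertical axis, rescaled TPM divided by 1000), 1 point per library, coloured by group. The 4 dexamethasone libraries hold the 4 lowest mitochondrial shares, and LLC 3 the highest at 60.4% with 82201 TPM of nuclear members.

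Markers of other cells and fibre types moved in the same libraries. The summed level of 10 macrophage markers was 585 to 1037 TPM in the dexamethasone controls and 1756 to 4396 TPM after dexamethasone, and 5 of 10 rose. Lyz2 alone took 468 ± 126 and 2044 ± 965 TPM. The summed level of 7 slow fibre markers was 143 to 278 TPM in controls and 345 to 596 TPM after dexamethasone, with 4 called higher and 1 lower, while 7 endothelial markers summed to 328 to 350 and 208 to 278 TPM, with 2 called lower. The 5 satellite cell markers summed to 23.8 to 30.9 TPM in controls and 38.9 to 46.3 TPM after dexamethasone, and 2 of 4 tested rose (Cdh15 by 0.71 and Myf5 by 0.50 on the log2 scale). Of 4 neutrophil markers tested S100a8 (3.15) and S100a9 (1.47) rose and Retnlg (-3.70) fell. Of 5 adipocyte markers tested 3 rose, Cidec (1.31), Adipoq (0.93) and Cidea (0.72), while the sum of that list was 664 to 693 TPM in controls and 465 to 658 TPM after dexamethasone. Of 4 tendon markers tested Scx (1.54) rose and Tnmd (-1.36) fell. The lists for fibroadipogenic progenitors, Schwann cells, red cells, and smooth muscle and pericytes held 0 called genes. Ucp1, of the adipocyte list, was listed at 0 in every control library, and no other marker of these lists was at 0 throughout either group. The muscle fibre markers summed to 172758 ± 1133 TPM in controls and 165159 ± 5594 after dexamethasone, with 0 of 8 called, and the 3 fast myosins to 25273 ± 2776 and 24982 ± 8392. In bulk tissue fewer cells of a type and less RNA per cell cannot be told apart, and the part of these markers in the lower chain transcripts was not tested. For Ndufa4l2 and Cox4i2, which are typical of vessel wall cells, the 6 markers of smooth muscle and pericytes summed to 576 ± 44.0 and 695 ± 91.7 TPM; their part was not tested.

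The promoters of the 8 genes that fell were read for letters of factors known to act on respiratory chain genes, since these members moved together. RefSeq windows (GRCm38.p6, 250 bases before to 50 after the start, 300 in all) were found for 69 of 84 members. Motifs were searched on either strand: GCGCATGCG for NRF1, CCGGAAGT for GABP and other ETS factors, AAGATGGCG for YY1 and TCAAGGTCA for ESRRA. The NRF1 letters overlap their own reverse complement, so 1 stretch can match on both strands. The 5 genes below among the 8 hold a match, and Cox7a1, with the largest decrease, holds none; each is shown 5′ to 3′ on the gene's strand from 70 bases before to 50 after the start, with the match in capitals.
Uqcrc1, chr9:108936578-108936697, plus strand: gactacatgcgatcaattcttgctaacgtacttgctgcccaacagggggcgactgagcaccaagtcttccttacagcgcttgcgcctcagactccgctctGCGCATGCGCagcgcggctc
Ndufa8, chr2:36049289-36049408, minus strand: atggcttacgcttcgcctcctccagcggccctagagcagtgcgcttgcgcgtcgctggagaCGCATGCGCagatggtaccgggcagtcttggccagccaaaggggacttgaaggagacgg
Ndufs7, chr10:80249379-80249498, plus strand: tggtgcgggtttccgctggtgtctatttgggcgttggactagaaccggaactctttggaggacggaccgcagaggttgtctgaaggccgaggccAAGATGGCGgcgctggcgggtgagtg
Atp5g3, chr2:73911277-73911396, minus strand: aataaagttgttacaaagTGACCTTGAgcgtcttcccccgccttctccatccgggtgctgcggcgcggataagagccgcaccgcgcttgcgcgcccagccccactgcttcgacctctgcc
Sdhd, chr9:50603800-50603919, minus strand: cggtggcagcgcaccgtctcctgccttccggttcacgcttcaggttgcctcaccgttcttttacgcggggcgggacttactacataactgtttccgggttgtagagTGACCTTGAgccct
Cox7a1, chr7:30184101-30184220, plus strand: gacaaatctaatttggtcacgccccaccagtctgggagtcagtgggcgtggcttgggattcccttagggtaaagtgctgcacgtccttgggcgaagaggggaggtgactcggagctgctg

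The capitals mark NRF1 letters in Uqcrc1, read on both strands, and in Ndufa8, read on the opposite strand. They mark YY1 letters in Ndufs7, and ESRRA letters, read on the opposite strand, in Atp5g3 and Sdhd. Over all members with a window, 8 of 69 (11.6%) held the NRF1 letters against 1.95% of 27025 genes, 8 of 69 (11.6%) the YY1 letters against 1.64%, 5 of 69 (7.25%) the ETS letters against 4.31%, and 2 of 69 (2.90%) the ESRRA letters against 0.466%. The YY1 letters lay in the direction of transcription in all 8 members that held them, and in 7 of them a match began 23 to 36 bases after the start, as in Ndufs7. None of the 4 was found in 47 of 69. A match is a description of the letters and not a measured site.

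The regulators themselves did not pass in the dexamethasone comparison: 0 of 17 coactivators, transcription factors, nuclear receptors and mitochondrial transcription genes were called. An unadjusted p under 0.05 was found for 6 of 17, beside 3127 of 12961 rows. Ppargc1b, a coactivator of the chain's genes, had a log2 difference of -0.60 (adjusted p = 0.0707) and Esrra, the nuclear receptor it works with, -0.38 (adjusted p = 0.0663). Ppargc1a was at -0.15 (adjusted p = 0.665), Nrf1 at 0.24 (adjusted p = 0.204) and Tfam, which packs and transcribes mitochondrial DNA, at -0.11 (adjusted p = 0.492). The median over the 17 was 0.01.

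Of other genes that serve the chain a few fell, to be read beside the 2.96% of all rows that fell. Of 46 assembly factors tested 2 fell, near that share: Coa5 from 188 ± 9.91 to 135 ± 13.1 TPM and Taco1, which aids translation of a mitochondrially encoded subunit of complex IV, from 99.2 ± 5.10 to 70.6 ± 7.13 TPM (adjusted p = 0.0138 and 0.0139), with a list median of -0.16. Another list held 13 genes for ubiquinone synthesis, cytochrome c, and the electron transfer flavoprotein and its dehydrogenase. Of these 2 fell, Coq5 (-0.36, adjusted p = 0.0408) and Coq7 (-0.56, adjusted p = 0.0241), with a median of -0.19. Of 17 genes of the citric acid cycle and pyruvate dehydrogenase 3 fell: Dlat, from 188 ± 11.7 to 126 ± 5.83 TPM (adjusted p = 0.00374), Idh3a, from 1070 ± 67.2 to 764 ± 56.1 TPM (adjusted p = 0.0159), and Pdhx (-0.40, adjusted p = 0.0261), with a median of -0.26. Of 11 mitochondrial carriers and pores 0 were called.

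In old muscle most members had slightly lower means than in young muscle, and none was called. By limma 0 of 81 members passed in either direction, as did 0% of 11704 rows in either direction, with 3 members and 1629 rows at an unadjusted p under 0.05. The median member was at -0.11 while the median row was at 0.11, so members stood at -0.22 relative to it; all 81 lay below the median row and 73 below 0. For 15 members every old library was below every young one, beside 2.92% of rows. Every old library was above for 0 members, where the share of all rows was not counted. The relative median was -0.08 without young 3, the young library with the highest sum (79438 TPM).

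The members with the smallest p were Ndufs8, Ndufc1, Ndufb7 and Uqcrc1. Ndufs8, an iron-sulfur subunit of complex I next to Ndufs7, stood at 424, 435 and 547 TPM in young and 383, 396 and 367 TPM in old libraries (-0.29 ± 0.10, adjusted p = 0.327). The groups lay apart, and young 3 was far above the other young libraries. Ndufc1 was at 343, 350 and 377 TPM in young and 296, 329 and 317 TPM in old libraries (-0.18, adjusted p = 0.347), Ndufb7 at 92.7 ± 7.30 and 80.4 ± 3.58 TPM (adjusted p = 0.347), and Uqcrc1 at 755 ± 79.9 and 651 ± 33.8 TPM (adjusted p = 0.358). Cox7a1, the leading member after dexamethasone, was at 1865, 1977 and 2188 TPM in young and at 1764, 1866 and 1561 TPM in old libraries (adjusted p = 0.362), where the highest old library reached the lowest young one.

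Between LLC muscle and its controls no member passed the test. The summed level was 73357 ± 9193 TPM under LLC and 73478 ± 6155 TPM in controls. By limma 0 of 81 members were called, beside 1.03% of 12011 rows that fell and 3.51% that rose. An unadjusted p under 0.05 was found for 2 of 81 members, beside 2793 of 12011 rows. The median member was at -0.02 and the median row at 0.07. Every LLC library lay below every control for 1 member, Ndufc1, beside 3.08% of rows. All lay above every control for 1 member, Cox7a2l, but the share of all rows that did so was not counted. The sign of the median member turned without LLC control 1 (0.04), LLC 2 (0.05) or LLC 4 (0.03), so no direction can be given.

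Ndufc1, an accessory subunit of complex I, stood at 382, 345, 364 and 370 TPM in controls and 337, 284, 331 and 318 TPM under LLC (-0.20 ± 0.08, adjusted p = 0.168). Cox7a2l stood at 370, 384, 381 and 380 TPM in controls and at 435, 392, 434 and 416 TPM under LLC (0.15 ± 0.07, adjusted p = 0.249). Ndufs7 was at 559 ± 91.3 and 458 ± 38.1 TPM (adjusted p = 0.196) and Atp5d, the delta subunit in the central stalk of the synthase, at 587 ± 105 and 494 ± 41.2 TPM (adjusted p = 0.283), each with 1 high control, LLC control 1. Among core subunits Cox5a was at -0.16, Sdha at 0.12 and Atp5a1 at -0.00, with overlapping groups.

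A few other genes of the pathway passed under LLC, beside the 3.51% of all rows that rose and the 1.03% that fell. Ppargc1b fell from 6.22 ± 1.26 to 2.95 ± 1.29 TPM (adjusted p = 0.0429) and Nrip1, a corepressor of oxidative genes, rose from 5.77 ± 0.53 to 9.13 ± 1.63 TPM (adjusted p = 0.0388), so of 17 regulators 1 fell and 1 rose. Foxred1, an assembly factor of complex I, rose from 17.4 ± 1.03 to 22.5 ± 1.92 TPM (adjusted p = 0.0423), as 1 of 46 assembly factors, a share no higher than that of all rows, and Suclg2 of the citric acid cycle rose from 51.8 ± 2.91 to 65.6 ± 3.04 TPM (adjusted p = 0.0317), as 1 of 17. The 5 red cell markers summed to 1066 to 1492 TPM in controls and 1810 to 15408 TPM under LLC, with 3 of 5 called higher, and the 5 neutrophil markers to 2.4 to 172 and 89.9 to 189 TPM, with 2 of 5 called higher. The 8 muscle fibre markers summed to 186753 to 203463 TPM in controls and 169870 to 186556 TPM under LLC, so that every LLC library was lower, with 0 of 8 called. Of 7 endothelial markers Pecam1 (0.49) and Vwf (0.57) rose, of 7 fibroadipogenic progenitor markers Col3a1 (-1.44) fell, and of 4 tendon markers tested Tnmd (-1.29) fell. The adipocyte list summed to 569 to 677 TPM in controls and 706 to 920 TPM under LLC, with 0 of 4 tested called. The part of these markers in the values above was not tested.

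With Cyr61 siRNAs 0 of 82 members were called against NT siRNAs, as were 0% of 12245 rows in either direction, with 1 member and 240 rows at an unadjusted p under 0.05. The median member was at -0.14 and 77 of 82 were below the median row, which was at 0.02. The groups overlapped for every member, beside 0.343% of rows in which every Cyr61 siRNA library was lower. The summed level was 70478 ± 7700 TPM with Cyr61 siRNAs and 77797 ± 9419 with NT siRNAs, and 1 library of each group shaped it: without Cyr61 siRNA 3, at 59604 TPM, the median member was at -0.05, and without NT siRNA 1, at 88154 TPM, it was at -0.08. Atp5k, subunit e of the synthase, was at 1452 ± 246 and 1161 ± 120 TPM, Ndufb11 at 926 ± 114 and 783 ± 65.0 TPM and Atp5e at 805 ± 114 and 657 ± 79.3 TPM (NT siRNAs first; adjusted p = 1.00 for each).

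The response of the members to dexamethasone was next set against their response to LLC and to age, in a fit of the 22 libraries of these 3 experiments. The difference of the responses was called for 1 of 82 members between dexamethasone and LLC, in the lower direction. Of 13484 rows 2.42% were called lower and 3.23% higher. At an unadjusted p under 0.05 there were 18 of 82 members, near the share of all rows, which was 2537 of 13484. The called member was Sdhc, a membrane anchor of complex II that carries its heme with Sdhd. It stood at 303, 304, 272 and 289 TPM in dexamethasone controls and at 250, 231, 232 and 246 TPM after dexamethasone. In LLC controls it stood at 310, 280, 288 and 292 TPM, and under LLC at 321, 324, 385 and 289 TPM. It was thus lower than all controls in 1 experiment and overlapped with them in the other. The responses were -0.28 and 0.17, which differed by -0.45 ± 0.12 (adjusted p = 0.0279). On TPM as deposited 0 members were called lower and 3 higher, which are named after their values were seen: Ndufs4 (0.42, adjusted p = 0.0392), Ndufa4l2 (0.74, adjusted p = 0.0197) and Cox8a (0.79, adjusted p = 0.0217). For Sdhc the difference was then -0.03 (adjusted p = 0.860), under median-of-ratios scaling -0.45 (adjusted p = 0.0720), and the call was lost without any 1 of dexamethasone control 1, 2 or 4, dexamethasone 3, LLC control 2 or 4, or LLC 3 (adjusted p from 0.0503 to 0.0650).

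For Cox7a1 the responses to dexamethasone and LLC differed by -0.63 ± 0.21 (adjusted p = 0.0802), so its fall after dexamethasone was not shown to be particular to it. Between old age and LLC 0 of 82 members were called, beside 0.0593% of rows lower and 0.0667% higher. Between dexamethasone and old age 0 of 82 were called, beside 1.91% of rows lower and 0.727% higher. Each had 1 member at an unadjusted p under 0.05, beside 1409 and 1787 of 13484 rows in the same order. The median member difference was -0.28 for dexamethasone minus LLC, -0.18 for dexamethasone minus old age and -0.09 for old age minus LLC, with medians of all rows at 0.02, -0.02 and 0.05. On TPM as deposited the sign of all 3 turned, to 0.13, 0.04 and 0.11, with medians of all rows at 0.37, 0.18 and 0.19, so no direction can be given apart from the median row, below which the median member stayed on both scales.

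Isoform ratios within a library move little with its scaling, except where a member is low, as Cox4i2 is, because of the pseudocount of 1. In each of the 4 comparisons 6 pairs were compared. No pair passed after adjustment over the 6 pairs, an outcome that the group sizes nearly fixed. The smallest exact p is 0.0286 with 4 against 4, so 1 pair alone could not pass. With 3 against 3 it is 0.1, so no pair could. The lack of calls is therefore no evidence that the ratios were equal. The nearest was Cox8b over Cox8a, the muscle form over the ubiquitous one, which was 13.4 in dexamethasone controls and 8.41 after dexamethasone (geometric means). Its log2 ratio ran from 3.49 to 3.96 in controls and from 2.60 to 3.45 after dexamethasone, without overlap, a difference of -0.67 (exact permutation test, two-sided, p = 0.0286, adjusted 0.114, n = 4 each). Ndufa4l2 over Ndufa4 differed by 0.55 and Atp5g1 over Atp5g3 by 0.14 (exact p = 0.0571 for each, adjusted 0.114), with overlapping groups. Cox7a1 over Cox7a2 differed by -0.29 (exact p = 0.143), and Cox6a2 over Cox6a1 by 0.01 (exact p = 0.971), with a ratio of 26.3 in controls and 26.4 after dexamethasone.

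In old muscle Cox7a1 over Cox7a2 was 2.35 against 2.58 in young, with no overlap and a difference of -0.13 (exact p = 0.1, which is the smallest that 3 against 3 allows, adjusted 0.6). Under LLC the largest difference was that of Cox4i2 over Cox4i1, 0.19 (exact p = 0.343), and with Cyr61 siRNAs that pair differed by 0.33 (exact p = 0.257); both overlapped. The groups used as the reference in the 4 experiments stood at different levels: Cox6a2 over Cox6a1 had a mean log2 ratio of 5.82 in young muscle, 4.71 in dexamethasone controls, 5.37 in LLC controls and 5.30 with NT siRNAs. That of Cox8b over Cox8a was 3.71, 3.75, 4.73 and 4.17 in the same order. These differences were not tested, and experiment and reference group cannot be told apart there.

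**Figure D5:**
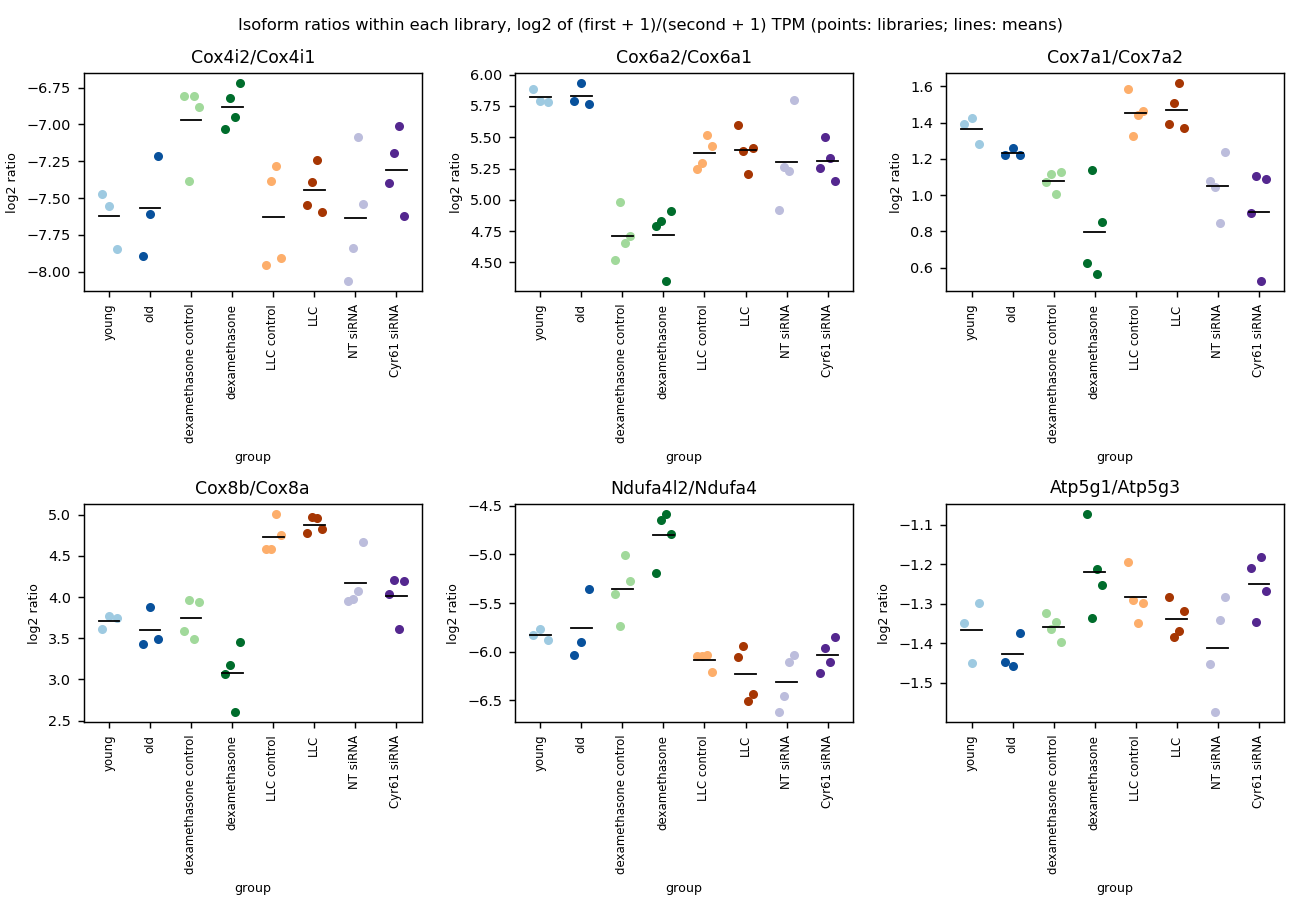
Log2 ratio of 6 isoform pairs (vertical axes) in each library (points) of the 8 groups (horizontal axes); lines are group means. The 4 dexamethasone libraries lie below all controls in Cox8b/Cox8a, and the 4 experiments sit at different heights in Cox6a2/Cox6a1.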

How the data were processed

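RNA of 30 tibialis anterior samples was sequenced (Illumina NovaSeq) from TruSeq stranded mRNA libraries, per the labels' protocols. TPM were computed and deposited by the authors, in 1 table with a column per sample and a row per gene symbol; each column sums to 1000000. The build was mm10, per the submitters' processing notes; an aligner, a counter, its strand setting and an annotation are not named in the sources used here. Reads shared with processed pseudogenes, which are common for these genes, may therefore be counted either way.

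TPM were rescaled without rows starting mt-. log2(TPM + 1), with a pseudocount of 1, was fitted by limma 3.58.1 (R 4.3.3) with a variance trend, in the 2 groups of each comparison or, for differences between responses, in 22 libraries, over rows with at least 1 TPM in as many libraries as the smaller group (3 for responses). P-values were two-sided and adjusted by Benjamini-Hochberg over all rows tested; they measure the spread between these libraries. Isoform ratios were tested by exact permutation in scipy 1.17.1. The fit was tested on simulated data with 67 changes of 1.5-fold. It called 43.3% of them for age, 65.7% for dexamethasone, 71.6% for LLC and 58.2% for Cyr61 siRNAs. Smaller changes were not simulated, so a member that was not called may still differ. The simulated spread was independent between rows, unlike the shift that members share here. The table was read with pandas 2.3.3 in Python 3.11.15.

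Reads per library were estimated from TPM steps with GENCODE M21 exon lengths; 78.7 to 82.0% of values under 30 reads came out whole within 0.05 read. Promoters came from RefSeq (GRCm38.p6). The alternatives changed the pseudocount (0.1 and 0.5), dropped the filter or raised it to 5 TPM, and used TPM as deposited, median-of-ratios scaling, rescaling without the 20 highest rows, robust variances, a replicate block, all 8 groups in 1 fit, leaving out Cox7a2l, Atp5s and Atp5sl, and leaving out each library. The members and lists were chosen with earlier results of these data known. Named were core subunits, isoform pairs, up to 5 called members with a mean of at least 5 TPM per direction, the 4 members of smallest p where none was called, up to 6 called members of a response difference, and up to 3 called genes of each other list; 1 member is not reported here.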

Additional observations from a re-analysis of the deposited data

Results flagged for a closer look

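In groups of 4 libraries, 276 sets of values (named members, summed complexes and isoform ratios) were searched for a library far from the others, and 16 were marked, where chance marks about 1 in 20. LLC control 1 stood high in 7 of them. Its Atp5d was at 745 TPM beside 530 to 541 in the other LLC controls, Atp5g1 at 491 beside 364 to 379, Atp5g3 at 1126 beside 908 to 934, and Cox7a2 at 965 beside 822 to 844. Its Ndufs3 was at 478 TPM beside 403 to 413, Ndufs8 at 592 beside 447 to 464, and Uqcrfs1 at 1406 beside 1075 to 1122. This library had a mitochondrially encoded share of 41.7%, the lowest of the LLC experiment.

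In dexamethasone control 2, Cox6a2 stood apart high at 3445 TPM beside 3007 to 3077, and Cox4i2 low at 7.66 TPM beside 11.3 to 11.6, which put the log2 ratio of Cox4i2 to Cox4i1 at -7.38 beside -6.88 to -6.81. In dexamethasone control 3, Atp5g3 was low at 987 TPM beside 1066 to 1073, and the sum of complex II at 2354 TPM beside 2742 to 2780. Atp5k was low in Cyr61 siRNA 3, at 981 TPM beside 1210 to 1233, and Ndufv1 in dexamethasone 3, at 377 TPM beside 439 to 448. The log2 ratio of Cox8b to Cox8a was 4.67 in NT siRNA 4 beside 3.95 to 4.07, and that of Ndufa4l2 to Ndufa4 was -6.21 in LLC control 4 beside -6.05 to -6.03.

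Sdhc was the member called in a test of the difference between responses, with a log2 difference of -0.45 between dexamethasone and LLC (limma interaction, adjusted p = 0.0279). It was 1 of 82 members tested, beside 2.42% of all rows called lower. The call was lost on TPM as deposited, under median-of-ratios scaling, and in several fits without 1 library.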

How the results depend on the processing

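No difference called in the main setting changed sign under an alternative; 48 values that were not called did, in 119 fits. The median member turned on TPM as deposited in all 3 differences between responses (to 0.13, 0.04 and 0.11), and under LLC without LLC control 1, LLC 2 or LLC 4. In the main setting 8 members fell after dexamethasone; over all members tested the number that fell was 2 with no filter, 1 on TPM as deposited, 5 under median-of-ratios scaling, 14 without the 20 highest rows and 19 with all 8 groups in 1 fit, and 0 to 29 when 1 library was left out. Members that rose after dexamethasone numbered 3 on TPM as deposited. The count of members with a lower response to dexamethasone than to LLC was 0 on TPM as deposited and under median-of-ratios scaling, and 0 to 4 when 1 library was left out; the count with a higher response was 3 on TPM as deposited. The log2 ratio of the summed members was -0.010 after dexamethasone and -0.16 under LLC on TPM as deposited. The members' median relative to the median row in old muscle ran from -0.30 to -0.084 when 1 library was left out. The causes were not tested. With the replicate number as a block, 11 members fell after dexamethasone and none passed in old, LLC or Cyr61 siRNA muscle. With Cyr61 siRNAs the members at an unadjusted p under 0.05 went from 1 to 37, and all rows from 240 to 691. After dexamethasone the rows called lower went from 384 to 486 and those called higher from 721 to 1123. Libraries of the same number correlated from 0.02 to 0.47 in their deviations within an experiment, not over 0.1 for every pair of any comparison. In no comparison did every library correlate best with its own number. The number was taken as a name in the main fit. These correlations cannot settle whether libraries of 1 number were paired or shared a batch, and that was not tested. With 3 or 4 libraries a group, and a spread that members share within a library, a difference of the size of that shared shift cannot be resolved.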
